A study of Mus musculus with 4 samples.

Results

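A set of genes of calcium handling, *Itpr1*, *Itpr2*, *Itpr3*, *Atp2a2*, *Stim1*, *Stim2*, *Orai1*, *Camk2g*, *Cacna1h* and *Trpm7*, were followed by RNA-seq in mouse oocytes matured with or without tubastatin A (TubA), a small molecule made to inhibit the cytoplasmic deacetylase HDAC6. They were chosen by name, for their roles in loading, releasing and reading the calcium store of the egg, and all 10 of them were found by Ensembl identifier among 21957 genes. The oocytes came from B6D2F1 hybrid females (C57BL/6 x DBA) aged 6 to 8 weeks, collected 48 h after 5 IU of PMSG, a hormone that stimulates follicle growth. Control GV-stage oocytes, arrested with an intact nucleus, were taken at 0 h of culture. Control MII-stage oocytes were taken after 12 h of culture without TubA, and only if the first polar body had been extruded. TubA-10 and TubA-20 oocytes were taken after 12 h of culture with TubA, and their meiotic stage at collection cannot be read from the deposited values. The labels disagree on the dose, with 10 and 20 µM in the sample titles but 20 µM (TubA-10) and 11 µM (TubA-20) under treatment. The groups are called by their titles here, so no statement below rests on the size of either dose. Each condition was 1 library made from a pool of 100 oocytes. Differences between libraries could therefore not be set against any spread between replicates, and no p-value, SD or test is given.

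At fertilization the sperm brings phospholipase C zeta into the egg, and the IP3 it produces opens IP3 receptors of the endoplasmic reticulum. The repeated calcium rises that follow are kept going by SERCA pumps, which refill the store, and by entry of calcium across the plasma membrane. The γ isoform of CaM kinase II reads these rises and releases the egg from its arrest at metaphase II. Fully grown oocytes transcribe little or nothing, so maturation is a time in which stored transcripts are degraded, kept, or given longer poly(A) tails. The libraries were selected with oligo(dT), which binds poly(A), and a change in the amount of a transcript cannot be told apart from a change in its tail.

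Values are FPKM, fragments scaled to transcript length and to the mapped fragments of the library, so levels can be compared between genes. A difference is given as the log2 ratio of FPKM + 1, and it is called past 2-fold when that ratio is beyond 1 in either direction. Between control GV- and MII-stage oocytes, 7 of the 10 genes were higher at MII and 3 were lower, with a median log2 ratio of 0.31 against 0.13 for the 9193 genes with at least 1 FPKM in all 4 libraries. Only *Itpr1* (higher) and *Orai1* (lower) were past 2-fold, 2 of 10 genes against 11.4% of all genes and 23.5% of those reaching 1 FPKM in either library. By direction, 3.05% of all genes were past 2-fold higher and 8.34% lower. Because the values come from pooled bulk RNA, a lower value cannot be told apart from fewer cells holding the transcript or less RNA in each of them. Against control MII-stage oocytes, 0 of the 10 genes were past 2-fold in TubA-10. Of all genes 0.642% were, and of those reaching 1 FPKM in either library 1.37%. In TubA-20 0 of the 10 were past 2-fold against MII either, although *Orai1* stopped just short of the threshold at -0.99. Here 2.77% of all genes and 5.91% of those reaching 1 FPKM in either library were past 2-fold. The medians of the 10 genes against MII were -0.09 (TubA-10) and -0.07 (TubA-20), close to the medians over the 9193 genes (0.00 and 0.02). The comparisons of MII, TubA-10 and TubA-20 with GV share the GV library, and those of TubA-10 and TubA-20 with MII share the MII library, so they are not independent of each other. MII against GV also uses that MII library, on the other side of the ratio. A high value in it raises the ratio of MII to GV and lowers the ratios of TubA-10 and TubA-20 to MII.

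**Figure D1:**
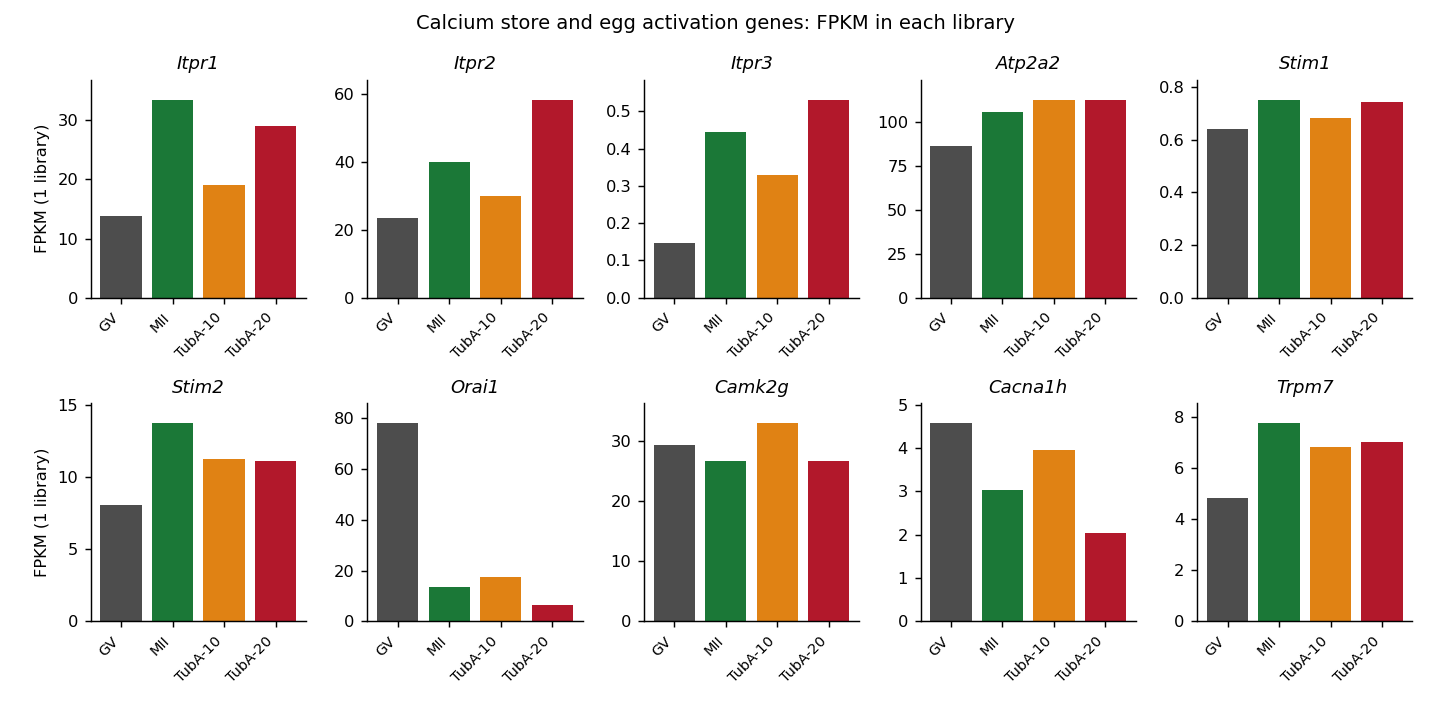
FPKM of the 10 genes (y axes, a separate scale from 0 for each gene) in the GV, MII, TubA-10 and TubA-20 libraries (x axes), each bar standing for 1 library. *Orai1* was 78.1 FPKM in GV and 13.7 FPKM in MII, *Itpr1* went from 13.9 FPKM in GV to 33.5 FPKM in MII, and *Atp2a2* stayed between 86.6 and 113 FPKM.

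The IP3 receptors are the release channels of the store. *Itpr1* (ENSMUSG00000030102.11, GRCm38 chr6:108213096-108551109, plus strand) encodes IP3R1, the receptor best known for carrying the calcium rises of mouse eggs. Its level was 13.9 FPKM in GV and 33.5 in MII, with 19.0 in TubA-10 against 29.1 in TubA-20. The control MII library was the highest, TubA-20 lay near it, and TubA-10 lay nearer to GV. The log2 ratio of MII to GV was 1.21, a 2.42-fold difference in FPKM, and 98.0% of the 10661 genes reaching 1 FPKM in either library had a lower ratio. In TubA-10 *Itpr1* was 0.567 times its MII level, a log2 ratio of -0.79 that was not past 2-fold, but only 0.553% of 10315 genes had a lower ratio in that comparison. In TubA-20 the log2 ratio to MII was -0.20, and 33.1% of 10280 genes lay lower. The ratio of MII to GV and both ratios to MII rest on the same MII value. Measured along the log2 distance from GV to MII, *Itpr1* had covered 35.2% of the way in TubA-10 and 83.8% in TubA-20.

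*Itpr2* (ENSMUSG00000030287.15, chr6:146108299-146502223, minus strand) encodes the IP3 receptor with the highest affinity for IP3. It stood at 23.6 FPKM in GV and 40.0 in MII, while TubA-10 had 29.9 and TubA-20 58.4. TubA-20 was above both controls, while TubA-10 lay between them. The log2 ratio of MII to GV was 0.73, that of TubA-10 to MII was -0.41, and that of TubA-20 to MII was 0.54. Between the TubA libraries *Itpr2* was 1.96-fold higher in TubA-20, a log2 ratio of 0.94 that was above those of 98.0% of 10376 genes without being past 2-fold. Against GV, TubA-20 was past 2-fold at 1.27.

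*Itpr3* (ENSMUSG00000042644.8, chr17:27057304-27122223, plus strand), the type 3 receptor of many epithelia, was at 0.146 FPKM in the GV library and 0.443 in the MII library, against 0.330 (TubA-10) and 0.532 (TubA-20). Of the genes listed above 0 in a library, only 13.9% (GV) to 26.9% (MII) were lower, and its ratios depend on the pseudocount. With FPKM + 1 the log2 ratio of MII to GV was 0.33, and with a pseudocount of 0.1 it was past 2-fold at 1.14. Within each library *Itpr3* made up 0.389% to 0.670% of the summed IP3 receptor level, and *Itpr1* and *Itpr2* the rest. The sum of the 3 genes was 37.7 FPKM in GV and 73.9 in MII, with 49.2 in TubA-10 against 88.1 in TubA-20. *Itpr2* had the larger share in every library, 62.8% in GV and 54.1% in MII, and 60.7% (TubA-10) and 66.4% (TubA-20) after culture with TubA. The MII library thus had the *Itpr1* share nearest to that of *Itpr2*, with a ratio of *Itpr1* to *Itpr2* of 0.838, and TubA-20 had the lowest ratio at 0.498.

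*Atp2a2* (ENSMUSG00000029467.15, chr5:122453513-122502225, minus strand) encodes SERCA2, the pump that returns calcium to the endoplasmic reticulum. It was the most abundant of the 10 genes in each of the 4 libraries, at 86.6 FPKM in GV and 106 in MII, while TubA-10 had 113 and TubA-20 113. The 3 cultured libraries were close to each other and all above GV, with a log2 ratio of MII to GV of 0.29 and ratios of both TubA libraries to MII of 0.09, of which that of TubA-20 turned to between -0.03 and -0.07 under 3 of the 4 scalings. The other SERCA genes were listed at 0 in MII, TubA-10 and TubA-20, and in GV they added up to 0.455% of the family. The pump-to-channel ratio, *Atp2a2* over the summed IP3 receptors, was 2.30 in the GV library and 1.44 in the MII library, against 2.29 (TubA-10) and 1.28 (TubA-20). TubA-10 had nearly the ratio of GV, and TubA-20 was slightly below MII. *Atp2a2* itself differed little between the cultured libraries, so the ratio mainly carries the receptor levels.

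Store-operated entry is carried by STIM proteins, which sense calcium inside the store, and by ORAI channels of the plasma membrane, which they open. *Orai1* (ENSMUSG00000049686.14, chr5:123015074-123030456, plus strand), the pore-forming channel, differed most among the 10 genes. It was at 78.1 FPKM in GV and 13.7 in MII, with 17.6 in TubA-10 against 6.42 in TubA-20, and GV was 12.2-fold above TubA-20. All 3 cultured libraries were far below GV, with TubA-10 slightly above MII and TubA-20 below it. The log2 ratio of MII to GV was -2.43, with only 0.976% of 10661 genes lower. Against MII, TubA-10 was at 0.34 and TubA-20 at -0.99. With each of the pseudocounts of 0.1 and 0.01 and each of the 4 scalings of the libraries that were tried, *Orai1* was past 2-fold in TubA-20 against MII, between -1.05 and -1.13. Between the TubA libraries it was past 2-fold at -1.33, the single one of the 10 genes that was, in a comparison in which 6.18% of all genes were past 2-fold and 5.52% were so in the lower direction. Against GV it was at -2.09 in TubA-10, again the single gene of the 10 past 2-fold, where 6.34% of all genes were past it and 5.6% lower, and at -3.41 in TubA-20. In rank, *Orai1* stood above 90.0% of the genes listed above 0 in GV, 69.3% in MII, 72.8% after TubA-10 and 57.0% after TubA-20.

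*Stim2* (ENSMUSG00000039156.19, chr5:53998499-54121057, plus strand), the sensor that responds to small losses of store calcium, was at 8.10 FPKM in GV and 13.7 in MII, while TubA-10 had 11.2 and TubA-20 11.1. The TubA libraries were close to each other and lay between the controls, at log2 ratios to MII of -0.27 and -0.28, after 0.69 for MII against GV. *Stim1* (ENSMUSG00000030987.5, chr7:102267806-102437319, plus strand), the sensor of deeper store depletion, was low throughout, at 0.639 FPKM in the GV library and 0.752 in the MII library, against 0.681 (TubA-10) and 0.743 (TubA-20). *Stim2* therefore made up 92.7% to 94.8% of the summed STIM level. From GV to MII *Stim2* was higher and *Orai1* lower, while *Stim1* differed little, at a log2 ratio of 0.10. The ratio of summed STIM to summed ORAI level was 0.110 in GV and 0.940 in MII, with 0.600 in TubA-10 against 1.45 in TubA-20, so MII was 8.53-fold and TubA-20 13.1-fold above GV. A ratio taken within a library does not depend on how libraries are scaled to each other. *Orai3*, another channel of the family, was at 1.08 FPKM in GV and 1.67 in MII, while TubA-10 had 2.15 and TubA-20 1.77, and its share of the summed ORAI level was 1.37%, 10.8%, 10.9% and 21.6% in that order.

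**Figure D2:**
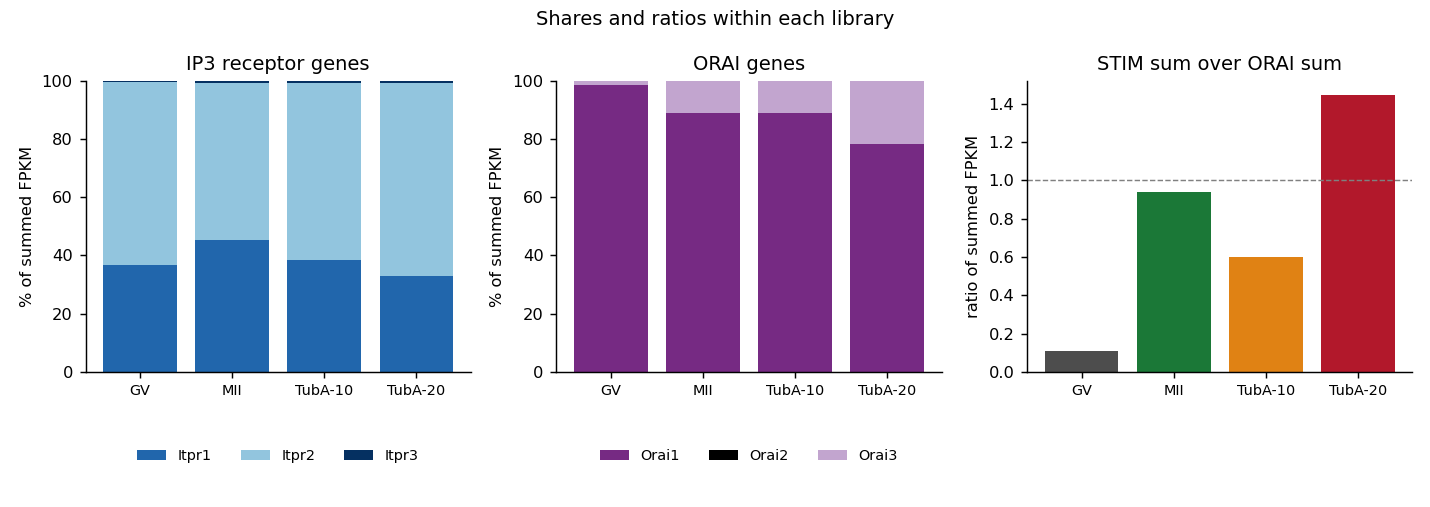
Shares of the summed FPKM of the IP3 receptor genes (left, %) and of the ORAI genes (middle, %), and the ratio of summed *Stim1* and *Stim2* to summed *Orai1*, *Orai2* and *Orai3* (right, ratio of FPKM, dashed line at 1), in 1 library per condition. The *Orai1* share was 98.6% in GV and 78.4% in TubA-20, and the STIM to ORAI ratio was 0.110 in GV and 1.45 in TubA-20.

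Apart from *Orai1*, the set held 2 genes of plasma membrane channels, *Cacna1h* and *Trpm7*, both at single-digit FPKM. *Cacna1h* (ENSMUSG00000024112.16, chr17:25374285-25433783, minus strand) encodes the T-type channel CaV3.2, which contributes to filling the store during maturation. It was at 4.57 FPKM in the GV library and 3.02 in the MII library, against 3.95 (TubA-10) and 2.05 (TubA-20). As deposited, TubA-10 lay between the controls and TubA-20 was the lowest. The log2 ratios to MII were 0.30 and -0.40, after -0.47 for MII against GV. The ratio of TubA-10 to GV was -0.17 and ranged from -0.30 to 0.04 under the alternatives tried. No direction can therefore be given for that ratio. The order of the 4 libraries as deposited was the same as for *Orai1*, over a range of 2.23-fold instead of 12.2-fold. *Cacna1h* overlaps the protease gene *Tpsg1* on the opposite strand, which was at 3.78 FPKM in GV and at 1.12 to 1.56 FPKM in the cultured libraries. The fragments were assigned by strand, and how far reads of one gene entered the value of the other was not tested.

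*Trpm7* (ENSMUSG00000027365.14, chr2:126791565-126876230, minus strand) encodes a channel with a kinase domain that passes divalent cations. Its level was 4.83 FPKM in GV and 7.75 in MII, with 6.82 in TubA-10 against 7.01 in TubA-20. The 3 cultured libraries were all above GV, and both TubA libraries were slightly below MII, at log2 ratios of -0.16 and -0.13 after 0.59 for MII against GV. *Trpm7* made up 82.2% to 91.6% of the summed level of *Trpm6* and *Trpm7*.

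*Camk2g* (ENSMUSG00000021820.16, chr14:20734875-20794088, minus strand) encodes the CaM kinase II isoform that is needed for eggs to leave metaphase II. It was at 29.3 FPKM in GV and 26.6 in MII, while TubA-10 had 32.9 and TubA-20 26.7. The 4 values lay within 1.24-fold of each other, and MII and TubA-20 were nearly equal. *Camk2g* made up 97.5% to 99.1% of the summed level of the CaM kinase II genes. The log2 ratio of MII to GV was -0.13 as deposited and turned to 0.09 when the libraries were scaled to equal *Gapdh*, so no direction can be given for it.

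**Figure D3:**
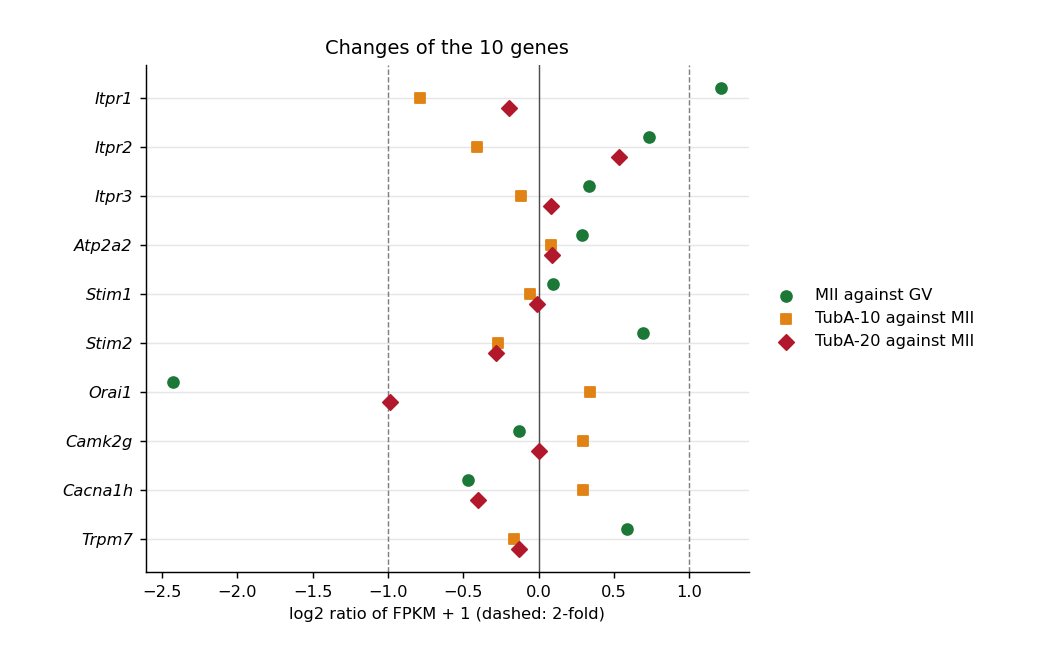
Log2 ratios of FPKM + 1 (x axis, dashed lines at 2-fold) of the 10 genes (y axis) for MII against GV (circles), TubA-10 against MII (squares) and TubA-20 against MII (diamonds), with 1 library per condition. *Itpr1* at 1.21 and *Orai1* at -2.43 lie past 2-fold in MII against GV, and *Itpr1* is the lowest square at -0.79.

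Across the 10 genes, TubA-10 and TubA-20 stood at different places between and beyond the controls. On the log2 distance from GV to MII as deposited, *Orai1* had covered 85.9% (TubA-10) and 141% (TubA-20), and *Itpr2* 44.4% and 173%. For *Cacna1h* the values were 36.5% and 185%, but the former rests on the ratio of TubA-10 to GV, for which no direction can be given. *Stim2* (61.3% and 59.4%) and *Trpm7* (72.3% and 78.3%) had covered similar parts of the way in both. Against GV, TubA-20 had 3 of the 10 genes past 2-fold, *Itpr1* at 1.02, *Itpr2* at 1.27 and *Orai1* at -3.41, where 19.3% of all genes (7.61% higher and 11.7% lower) and 39.4% of those reaching 1 FPKM in either library were past 2-fold. *Itpr1* was within 2-fold of GV in TubA-20 under 2 of the scalings, at 0.80 with a median log2 change of 0 and at 0.96 with equal upper quartiles. The summed level of the 10 genes was 250 FPKM in the GV library and 246 in the MII library, against 235 (TubA-10) and 255 (TubA-20). Without *Orai1* it was 172, 232, 217 and 249 FPKM, so the lower *Orai1* level offset the higher levels of the other genes in the sum.

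The ends of the transcripts are shown because oligo(dT) captures RNA by its poly(A) tail. Cytoplasmic polyadenylation elements, short U-rich letters near the 3′ end, are known for tail lengthening in maturing oocytes. One transcript per gene was taken from the GENCODE annotation of GRCm38, and the last 100 bases were searched on the transcribed strand for TTTTAT or TTTTAAT and for the poly(A) signal AATAAA. The letters of TTTTAAT and AATAAA can overlap. Only *Atp2a2* held the former letters, 1 of 10 genes against 16.6% of 21503 genes with a protein-coding transcript, and 6 of the 10 held AATAAA, against 61.3% of the same genes. The searched *Atp2a2* transcript ends inside the annotated gene, which extends to chr5:122453513 on the minus strand. The letters are therefore given for that 3′ end only. A 30-base stretch of *Atp2a2* (minus strand, chr5:122456410-122456439) with TTTTAT in capitals, and of *Itpr1* (plus strand, chr6:108551080-108551109) with AATAAA in capitals, both in the 3′ UTR of the last exon, read 5′ to 3′ as follows.
Atp2a2: gtctaatgtaTTTTATtgtaacagacattg
Itpr1: aaaaatatttAATAAAcgatgcagaatcct
*Itpr2*, *Stim2*, *Orai1* and *Trpm7* held none of these letters in the window, which says only that the letters are not in these 100 bases of that transcript. The presence of letters is a description and no site or cause is read from it.

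The wider pathway was described through 152 other genes on 11 lists by role, of which 99 reached 1 FPKM in some library. From GV to MII, 8 of the 152 genes were past 2-fold higher and 10 lower, 11.8% against 11.4% of all genes. In TubA-10 against MII 0 of them were past 2-fold, and in TubA-20 against MII 0 were higher and 5 lower, 3.29% against 2.77% of all genes (2.44% in the lower direction). These shares lie near the background. Of 16 genes of IP3 production 9 had at least 1 FPKM, 0 were past 2-fold higher and 1 lower from GV to MII, and *Plce1*, a phospholipase C, was the most abundant at 26.8 FPKM in GV and 16.4 in MII, with 21.1 in TubA-10 against 22.8 in TubA-20. Of 11 other store release genes, 1 was past 2-fold higher and 2 lower from GV to MII. The higher gene was *Tmem38b*, a potassium channel of the endoplasmic reticulum that balances charge during release, at 8.17 FPKM in GV and 20.9 in MII, while TubA-10 had 17.3 and TubA-20 19.3. Its relative *Tmem38a* was past 2-fold lower, at 16.0 FPKM in the GV library and 5.93 in the MII library, against 9.94 (TubA-10) and 4.24 (TubA-20).

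Of 14 other pump genes, 2 were past 2-fold higher and 1 lower from GV to MII. Over all genes, 3.05% were past 2-fold higher and 8.34% lower in that comparison. *Atp2c1*, a calcium and manganese pump of the Golgi, was at 42.5 FPKM in GV and 104 in MII, with 69.4 in TubA-10 against 69.1 in TubA-20, so both TubA libraries were below MII, at log2 ratios of -0.58. Of 9 other store-operated entry genes 1 was past 2-fold higher from GV to MII, and *Saraf*, which switches such entry off, was at 86.0 FPKM in GV and 152 in MII, while TubA-10 had 136 and TubA-20 212. Of 18 other plasma membrane channels 1 was past 2-fold, *Trpm4*, a cation channel opened by calcium, which was lower in MII at 2.46 FPKM than in GV at 13.2, with 5.66 (TubA-10) and 1.48 FPKM (TubA-20). Its order of the libraries was, as deposited, that of *Orai1* and *Cacna1h*.

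Calcium-binding proteins and chaperones of the endoplasmic reticulum were mostly higher in MII than in GV, 10 of 13 genes with a median log2 ratio of 0.57, but 0 of them were past 2-fold in either direction. From GV to MII, 3.05% of all genes were past 2-fold higher and 8.34% lower. The median of the 9193 genes with at least 1 FPKM in all 4 libraries was 0.13 as deposited. *Calr*, the store buffer calreticulin, was at 149 FPKM in the GV library and 255 in the MII library, against 196 (TubA-10) and 220 (TubA-20). Of 11 genes of mitochondrial calcium uptake 1 was past 2-fold higher from GV to MII, *Mcu*, the pore of the uniporter, at 29.3 FPKM in GV and 81.1 in MII, with 69.3 in TubA-10 against 88.5 in TubA-20. *Vdac3*, a channel of the outer membrane and the most abundant on that list, was at 249 FPKM in GV and 131 in MII, while TubA-10 had 183 and TubA-20 99.8.

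Of 23 genes for calmodulin, its kinases and calcineurin, *Calm2* and *Ppp3cc* (2 genes) were past 2-fold lower in TubA-20 against MII. Among all genes the share was 2.44%, and 536 of the 10280 genes reaching 1 FPKM in either library were past 2-fold lower. *Calm2*, a calmodulin gene, was at 467 FPKM in GV and 409 in MII, with 606 in TubA-10 against 143 in TubA-20. TubA-10 was the highest of the 4 libraries and TubA-20 the lowest. *Ppp3cc*, a catalytic subunit of calcineurin, was at 12.6 FPKM in GV and 4.41 in MII, while TubA-10 had 9.76 and TubA-20 1.20. It is named here after its values were seen, like *Mcu*, *Tmem38a*, *Fbxo43*, *Orai3* and *Tpsg1*. The same holds for *Zp3*, *Foxl2*, *Cyp19a1*, *Tnfaip6*, *Ptx3* and *Pecam1*, named below from the marker lists.

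Of 13 genes of meiotic arrest and exit, the targets of the calcium signal, 1 was past 2-fold from GV to MII, *Fbxo43* (EMI2), whose destruction after CaM kinase II action ends the arrest, at 16.9 FPKM in the GV library and 38.9 in the MII library, against 30.2 (TubA-10) and 34.3 (TubA-20). *Mos*, the kinase that holds the arrest, was the most abundant at 635 FPKM in GV and 726 in MII, with 571 in TubA-10 against 1041 in TubA-20, and 0 genes of the list were past 2-fold between TubA-20 and MII. In MII against GV, 3.05% of all genes were past 2-fold higher and 8.34% lower. In TubA-20 against MII, 2.44% of all genes were past 2-fold lower, 536 of the 10280 reaching 1 FPKM in either library. Of 15 genes of the egg surface and cortical granules, 3 were. They were *Padi6*, of the cytoplasmic lattices, at 833 FPKM in GV and 776 in MII, while TubA-10 had 987 and TubA-20 350, *Zp2*, of the zona pellucida, at 753, 778, 770 and 293 FPKM, and *Cd9*, needed for sperm fusion, at 242, 182, 299 and 67.5 FPKM in the same order. These 3 genes were near or above their MII level in TubA-10. Among 9 genes of zinc transport, which matters for the zinc release of activated eggs, 1 was past 2-fold higher and 1 lower from GV to MII and 0 in TubA-20 against MII, and *Slc39a10*, a zinc importer, was at 93.9 FPKM in the GV library and 222 in the MII library, against 176 (TubA-10) and 224 (TubA-20).

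**Figure D4:**
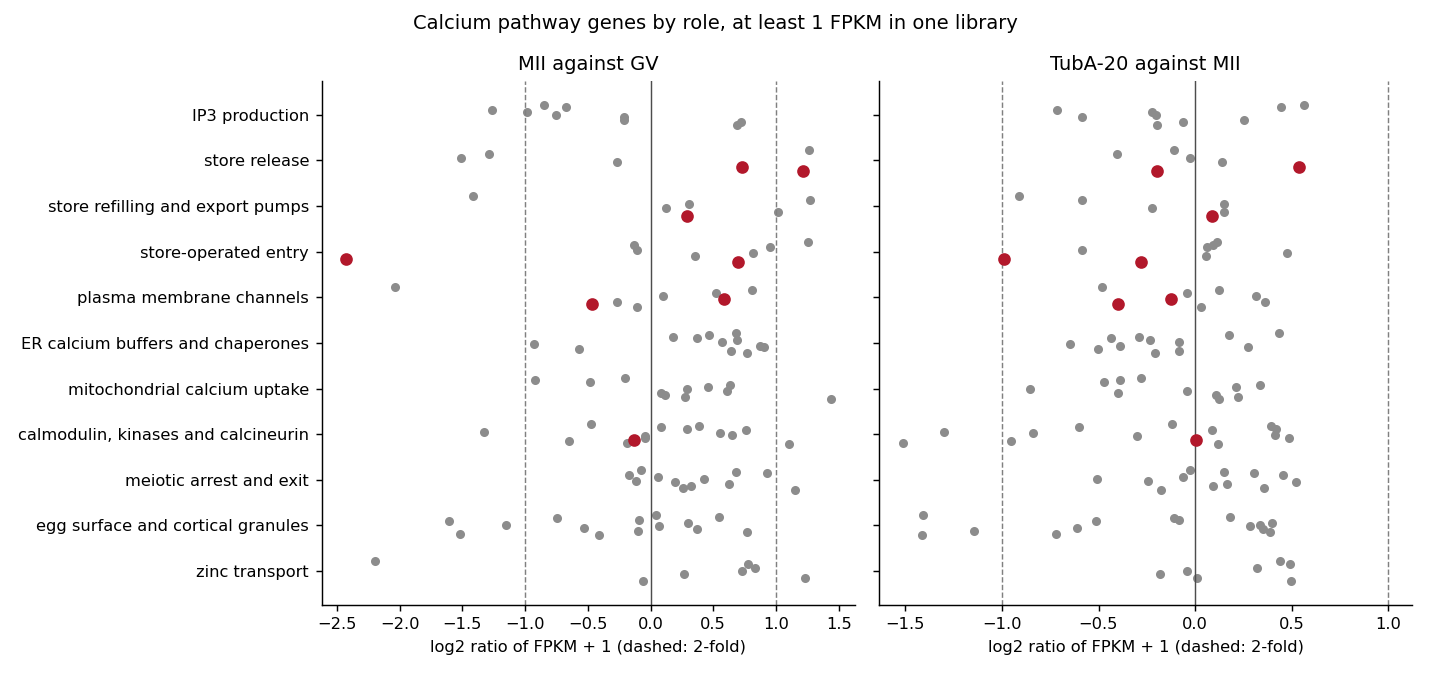
Log2 ratios of FPKM + 1 (x axes, dashed lines at 2-fold) of MII against GV (left) and TubA-20 against MII (right) for genes on 11 lists by role (y axis), limited to genes that reached 1 FPKM in some library, each point standing for 1 gene in 1 library per condition. Large red points are the members among the 10 genes described first, of which *Itpr3* and *Stim1* are left out as they were below 1 FPKM, and grey points are the other genes, of which 5 lie past 2-fold lower in TubA-20 against MII.

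The label of the libraries as oocytes was checked with markers. All 12 oocyte markers were present, at 197 FPKM or more in each library. Of the 12 markers, 3 (*Zp2*, *Zp3* and *Padi6*) were past 2-fold lower in TubA-20 against MII. Of all genes 2.44% were, 536 of the 10280 reaching 1 FPKM in either library. *Zp2* and *Padi6* are the same genes as those given above for the egg surface list. The 12 markers of cumulus and granulosa cells summed to 9.63 FPKM in GV and 13.3 in MII, with 10.1 in TubA-10 against 16.2 in TubA-20, with *Foxl2* listed at 0 in all 4 libraries and *Cyp19a1* making up most of each sum. Of these, 2 markers were past 2-fold higher in TubA-20 against GV and against TubA-10, *Tnfaip6* at 1.57 FPKM and *Ptx3* at 1.19 FPKM in TubA-20, where both were listed at 0 in GV. Over all genes, 7.61% were past 2-fold higher in TubA-20 against GV, and 145 of 21957 genes in TubA-20 against TubA-10. The 8 blood markers summed to 1.64 to 2.30 FPKM with 4 of them listed at 0 in all libraries, and the 8 stroma markers summed to 7.35 to 13.2 FPKM, most of it *Pecam1*. The part of these cells in the results was not tested. Depth relative to GV, estimated from the step that single fragments leave among low FPKM values, was 1.62 (MII), 1.70 (TubA-10) and 0.896 (TubA-20). Only 12.8% (MII), 14.7% (TubA-10) and 33.8% (TubA-20) of the low genes lay within 0.05 log2 of that step, so the estimates are rough, and they do not show which of GV and TubA-20 was sequenced more deeply. The median log2 ratio to GV of the 9193 genes with at least 1 FPKM in all 4 libraries, as deposited, was 0.13 (MII), 0.14 (TubA-10) and 0.19 (TubA-20), and the scalings tried moved it to between 0 and 0.32, 0.37 and 0.25. Of the genes past 2-fold, 26.7% were higher in MII against GV as deposited (13.7% to 51.2% under the scalings), 11.7% in TubA-10 against GV (4.23% to 46.4%) and 39.4% in TubA-20 against GV (22.9% to 44.2%).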

How the data were processed

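Poly(A) RNA of 100 pooled oocytes per library was bound with oligo(dT), made into stranded libraries and sequenced from both ends, with 1 library for each of GV, MII, TubA-10 and TubA-20. The labels name TRIzol for the extraction and the methods of the paper another kit. The authors deposited 1 table of FPKM values from cufflinks with a strand-specific setting on mm10. The submitters' processing notes name STAR 2.5.0, Cufflinks and Cuffdiff 2.2.1. The gene model named in the methods is from UCSC, but the table lists Ensembl identifiers. FPKM values are divided by transcript length and mapped fragments, and the table holds no counts, so no counting interval was computed. The read totals that the study gives for its libraries are not used here. Relative depth was estimated from ratios of FPKM between 0.001 and 0.15.

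Columns were mapped to samples by title. Identifiers were joined to GENCODE symbols and coordinates on GRCm38, and 165 of 21959 entries had no symbol. Entries that shared a symbol were summed, which left 21957 genes. Log2 ratios of FPKM + 1, a pseudocount that understates the change of low genes, were computed on the whole table with no filter, and a gene was called past 2-fold. With 1 library per condition no test was made. The 10 genes, the 11 pathway lists and the marker lists were chosen with earlier results of these data known. From each list the gene with the highest FPKM was named, and up to 5 genes past 2-fold in a TubA library against MII reaching 5 FPKM in either library. For each of the 10 genes with at least 1 FPKM, the 3 nearest genes with at least 10 FPKM by distance over 3 log2 ratios to GV were named as well. A gene that this rule picks is not reported here. Alternatives were pseudocounts of 0.1 and 0.01, minimum levels of 1 and 5 FPKM, 4 scalings of the libraries, thresholds of 1.5-fold and 3-fold, and the highest in place of summed entries. Scripts were tested on simulated data. Protein sequences are not used here. Software was Python 3.11.15, pandas 2.3.3, numpy 2.4.6, matplotlib 3.10.9 and scipy 1.17.1.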

Additional observations from a re-analysis of the deposited data

How the results depend on the processing

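None of the values past 2-fold changed sign under the alternatives tried, but smaller ones did, as given below. The number of the 10 genes past the threshold in MII against GV was 2 as reported, 5 at 1.5-fold, 1 at 3-fold, and 3 with pseudocounts of 0.1 and 0.01, which brought in *Itpr3* at 1.14 and 1.54. In TubA-10 against MII it was 0 as reported and 1 at 1.5-fold (*Itpr1*). In TubA-20 against MII it was 0 as reported and 1 (*Orai1*) at 1.5-fold, with pseudocounts of 0.1 and 0.01, and with each of the 4 scalings (median log2 change of 0, equal FPKM sums, equal upper quartiles, equal *Gapdh*). In TubA-20 against TubA-10 it was 1 as reported, 4 at 1.5-fold and 0 at 3-fold. In TubA-10 against GV it was 1 as reported and 2 with a pseudocount of 0.01, which brought in *Itpr3* at 1.12. In TubA-20 against GV it was 3 as reported, 1 at 3-fold, and 5 with pseudocounts of 0.1 and 0.01, which brought in *Itpr3* and *Cacna1h*. *Cacna1h* was also past 2-fold there, at -1.02, when the median log2 change was set to 0. The median log2 ratio of the 10 genes ranged from 0.22 to 0.59 in MII against GV, and it changed sign in TubA-20 against TubA-10, from -0.16 to 0.02. Of 630 values of single genes under the alternatives, 581 kept their direction and their side of the threshold, 23 passed it, 6 no longer passed it, and 20 changed sign without being past 2-fold, among them *Atp2a2* in TubA-20 against MII (0.09 to -0.07) and *Camk2g* in MII against GV (-0.13 to 0.09) with equal *Gapdh*. Many of the 581 could not have changed. Taking the highest entry left all 60 values as they were. The minimum levels of 1 and 5 FPKM only drop genes, so their 48 and 42 values were also fixed. The thresholds of 1.5-fold and 3-fold cannot change a direction. The 581 is therefore no measure of how stable the values are. Over all genes, lower pseudocounts raised the number past 2-fold in MII against GV from 2501 to 4616 (0.1) and 6507 (0.01), in TubA-10 against MII from 141 to 1096 and 3097, in TubA-20 against MII from 608 to 2237 and 4126, in TubA-20 against TubA-10 from 1358 to 3141 and 5091, in TubA-10 against GV from 1393 to 3135 and 5106, and in TubA-20 against GV from 4239 to 6862 and 8586. At 1.5-fold and 3-fold these numbers were 5744 and 807 in MII against GV, 1072 and 8 in TubA-10 against MII, 2303 and 76 in TubA-20 against MII, 3845 and 355 in TubA-20 against TubA-10, 4074 and 421 in TubA-10 against GV and 7329 and 1617 in TubA-20 against GV. No paired analysis was possible because each condition had 1 library, and for the same reason no library could be left out. *Itpr3* and *Stim1* were below 1 FPKM in all 4 libraries, and how far depth limits each gene was not computed.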

Other observations

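Genes whose pattern over MII, TubA-10 and TubA-20 against GV lay nearest to each of the 8 genes that reached 1 FPKM were sought among 6362 genes reaching 10 FPKM in some library, by Euclidean distance over the 3 log2 ratios. The 3 ratios share the GV library, and the names are a description only. Nearest to *Itpr1* were *Baz2b* at a distance of 0.06, *Espl1* (separase) at 0.11 and *Srsf4* at 0.14. *Baz2b* was at 34.9 FPKM in GV and 79.8 in MII, while TubA-10 had 48.7 and TubA-20 70.6. Nearest to *Itpr2* were *Khsrp* at 0.03, *Nsun5* at 0.04 and *Tomm34* at 0.07. *Tomm34* was at 49.7 FPKM in the GV library and 83.6 in the MII library, against 65.4 (TubA-10) and 120 (TubA-20), the highest of its 4 values being in TubA-20 as for *Itpr2*. Nearest to *Orai1* were *Rflna* at 0.05, *Atraid* at 0.06 and *Rps4x*, a protein of the small ribosomal subunit, at 0.10. *Rps4x* was at 810 FPKM in GV and 150 in MII, with 192 in TubA-10 against 70.2 in TubA-20.

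*Atp2a2* had *Slc25a15* at 0.05, *Plk1* at 0.06 and *Slc25a32* at 0.06 as its nearest genes, and *Plk1*, a kinase of cell division, was at 126 FPKM in GV and 157 in MII, while TubA-10 had 169 and TubA-20 167. *Stim2* had *Aplp2* at 0.06, *Mis12* at 0.07 and *Card19* at 0.09. *Camk2g* had *Gpr155* at 0.05, *1110008P14Rik* at 0.07 and *Ciart* at 0.07. *Cacna1h* had *Rras2* at 0.05, *Map1lc3a* at 0.08 and *Atp6v1f*, a subunit of the proton pump, at 0.09. *Trpm7* had *Pdia6* at 0.03, *Prdm6* at 0.04 and *Actr3* at 0.05.

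The letters TTTTAT or TTTTAAT in the last 100 bases were held by 2099 of the 10828 genes that reached 1 FPKM in some library, 19.4%. The median log2 ratio of MII to GV was 0.39 for these genes and -0.06 for the 8729 genes without the letters. In TubA-10 against MII the medians were -0.10 and 0.05, and in TubA-20 against MII 0.13 and -0.04. All of these comparisons use the same MII library, so they are not independent of each other. Among the 10 genes of calcium handling the letters were found in 1, *Atp2a2*. No cause of any change is read from the letters, which were sought in 1 transcript per gene.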
